A study of Mus musculus with 12 samples.

Results

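The genes described here are 10 members of the mammalian circadian clock, Arntl, Clock, Per1, Per2, Per3, Cry1, Nr1d1, Nr1d2, Dbp and Tef, chosen by symbol. Each of the 10 was found in the deposited table of 17175 genes. Total RNA was sequenced from mouse small intestine in 4 groups of 3 libraries: Bmpr1a cKO distal, Bmpr1a cKO proximal, WT distal and WT proximal. BMPR1A is one of the type I receptors through which bone morphogenetic proteins (BMPs) signal, cKO stands for conditional knockout, and the series asked how BMP signals in the epithelium relate to villus length along the gut. The labels give the genotype as Bmpr1a cKO or WT and the tissue as small intestine, and the sources used here name neither the Cre line nor the age, sex or strain of the mice. They also give no time of day at which tissue was taken, so collection time and genotype cannot be told apart. Distal and proximal libraries of a genotype share numbers, and segments of the same mouse would largely share a collection time. The labels do not say that a shared number means a shared mouse, so a shared time between segments is not established.

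In the mouse clock, CLOCK and the Arntl product BMAL1 form a dimer that binds E-box sequences and switches on Per, Cry, Nr1d1, Nr1d2, Dbp and Tef. PER and CRY proteins then inhibit that dimer, which closes the main loop. The nuclear receptors made from Nr1d1 and Nr1d2 (REV-ERB alpha and beta) repress Arntl at ROR response elements, and DBP and TEF are transcription factors of the PAR bZIP family that bind D-boxes. Arntl messenger RNA therefore peaks roughly opposite in phase to Nr1d1 and Dbp. In the intestine these genes cycle in the epithelium, where the time of feeding is a strong cue, and their outputs include transporters of sugars and peptides.

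By GENCODE M21 on build GRCm38, genes on the plus strand lay at chr7:113207465-113314126 for Arntl, chr11:69095217-69109960 for Per1, chr7:45705088-45710203 for Dbp and chr15:81802421-81826863 for Tef. Genes on the minus strand lay at chr5:76209868-76304792 for Clock, chr1:91415982-91459324 for Per2, chr4:151003652-151044665 for Per3 and chr10:85131700-85185064 for Cry1, at chr11:98767932-98775333 for Nr1d1 and at chr14:18204054-18239127 for Nr1d2. Promoter windows of 300 bases, from 250 before to 50 after an annotated start site, were given by RefSeq (build GRCm38.p6) for 9 of the 10 genes, 14 windows in all, and none for Per2. Of these, 5 are shown, those of the genes on which the comparisons below turn. Capitals mark matches on either strand to 5 motifs: the E-box CACGTG, the E-prime box CACGTT, the D-box TTANGTAA, the ROR response element half-site AGGTCA, and the cyclic AMP response element TGACGTCA. A match on the opposite strand appears as its reverse complement.
Dbp, chr7:45704997-45705296, plus strand: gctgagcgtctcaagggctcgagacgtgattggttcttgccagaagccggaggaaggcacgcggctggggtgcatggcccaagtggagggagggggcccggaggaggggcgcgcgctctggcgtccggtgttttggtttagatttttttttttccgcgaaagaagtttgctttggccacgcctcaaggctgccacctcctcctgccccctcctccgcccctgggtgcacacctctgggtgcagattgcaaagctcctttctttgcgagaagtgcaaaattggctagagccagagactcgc
Per3, chr4:151044616-151044915, minus strand: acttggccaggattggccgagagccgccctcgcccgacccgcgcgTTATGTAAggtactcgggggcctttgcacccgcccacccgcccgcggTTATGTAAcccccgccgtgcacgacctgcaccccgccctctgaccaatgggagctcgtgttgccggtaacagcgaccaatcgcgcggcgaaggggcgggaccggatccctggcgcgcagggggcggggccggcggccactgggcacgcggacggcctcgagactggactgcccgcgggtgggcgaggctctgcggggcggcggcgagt
Tef window 1, chr15:81802423-81802722, plus strand: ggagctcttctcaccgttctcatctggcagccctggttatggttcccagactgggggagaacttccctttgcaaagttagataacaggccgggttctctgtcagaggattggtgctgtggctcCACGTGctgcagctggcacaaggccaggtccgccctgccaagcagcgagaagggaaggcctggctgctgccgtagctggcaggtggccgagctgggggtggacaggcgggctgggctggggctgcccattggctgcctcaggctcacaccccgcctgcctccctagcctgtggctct
Per1 window 1, chr11:69098699-69098998, plus strand: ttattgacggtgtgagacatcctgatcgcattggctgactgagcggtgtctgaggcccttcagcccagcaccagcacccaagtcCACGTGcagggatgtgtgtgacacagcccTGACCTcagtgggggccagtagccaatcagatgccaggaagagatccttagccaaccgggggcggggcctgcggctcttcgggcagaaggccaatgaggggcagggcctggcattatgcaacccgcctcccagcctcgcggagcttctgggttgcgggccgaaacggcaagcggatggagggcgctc
Nr1d2, chr14:18239057-18239356, minus strand: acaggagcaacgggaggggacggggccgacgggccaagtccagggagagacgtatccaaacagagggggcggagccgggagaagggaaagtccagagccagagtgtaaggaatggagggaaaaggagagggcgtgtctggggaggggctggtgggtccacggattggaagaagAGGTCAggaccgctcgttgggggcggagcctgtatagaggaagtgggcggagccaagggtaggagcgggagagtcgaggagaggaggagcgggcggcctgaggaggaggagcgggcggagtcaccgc

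The Per3 window held 2 D-boxes, which began 205 and 158 bases before the start site, and no other member's window held one, against 2.32% of all 32851 mouse windows. Per1 carried an E-box at 166 and a half-site at 137 bases before its start, and both Tef windows carried an E-box, at 127 and 138 bases. The fourth E-box window was that of Cry1, so that 4 of the 14 windows held this motif, against 7.15% of all windows. E-prime boxes stood in the Cry1 and Nr1d1 windows (4.68% of all windows), half-sites in single windows of Arntl, Clock, Per1 and Nr1d2 (16.3%), and the cyclic AMP response element in none of the 14 (1.79%). The Dbp window held none of the 5 motifs. In mice, known BMAL1 sites of Dbp also lie within its introns, outside such a window.

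Values are scaled read counts: the authors' deposited signal, a read count plus 1 divided by a size factor of its library. Depth was 15225731 to 17722756 reads in cKO distal, 16661259 to 17388612 in cKO proximal, 11242024 to 14504077 in WT distal and 14840053 to 16381314 in WT proximal libraries, and the lowest member value rested on 35 reads. Whole-gene Bmpr1a stood at 486 to 1087 in the 6 cKO and 438 to 1029 in the 6 WT libraries, which overlap. Reads from exons that remain after a deletion count in it, so it does not check the labels. The BMP-induced gene Id1 was at 112 to 232 in cKO and 972 to 1650 in WT libraries, with no overlap. Both cKO libraries numbered 1 held no reads of Y-linked genes, and every other library held 1251 to 2390. By these reads the cKO libraries numbered 1 differ in sex from all others, which the labels do not state. No label states that each library is a separate mouse, so the p-values measure spread between samples that may be technical. Mitochondrially encoded genes took 9.95 to 27.7% of reads in cKO distal, 9.75 to 14.8% in cKO proximal, 22.3 to 37.7% in WT distal and 17.4 to 26.0% in WT proximal libraries. This share ran lower in cKO, with overlap in the distal segment. A fit with it as a covariate can therefore also take up part of a genotype difference. The Wilson 95% intervals of these shares were at most 0.0283 percentage points wide to either side and cover counting error only.

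As RPKM, the reads per kilobase of exon scaled to library depth, which allows levels to be compared between genes, Nr1d1 was the most abundant member (mean over 12 libraries 30.4), followed by Dbp (21.2), Tef (13.7) and Nr1d2 (12.2). Per2 (6.53), Per1 (6.38), Cry1 (5.01) and Clock (3.50) lay between, and Per3 (2.21) and Arntl (1.49) were lowest. Whether neighbours in a group's order overlapped differed between groups. Among cKO distal libraries Nr1d2 alone was separate from the gene below it, Per2. Among cKO proximal libraries, Tef was separate from Nr1d2, Clock from Per3, and Per3 from Arntl. Among WT proximal libraries, Dbp was separate from Tef, Nr1d2 from Per1, Cry1 from Clock, Clock from Per3, and Per3 from Arntl, whereas among WT distal libraries Nr1d1 alone was separate from the next gene, Nr1d2. The order was not the same in each group: Dbp ranked 1 in cKO proximal, 3 in WT distal, and 2 in cKO distal and WT proximal libraries.

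The members differed widely in how far they ranged over the 12 libraries. The highest library of Dbp was 34.4 times the lowest, that of Per3 16.9 times and that of Per2 14.6 times. Nr1d1 spanned 7.27, Tef 7.05, Arntl 4.30, Nr1d2 3.82, Cry1 3.81 and Per1 3.59 times, and Clock, whose messenger RNA cycles little in most mouse tissues, spanned 2.34 times. Much of this range lay between libraries of one group. The median within-group SD on the log2 scale was 0.53 for the members and 0.28 for all genes in cKO distal libraries, and 0.26 and 0.19 in cKO proximal libraries. It was 0.72 for the members and 0.28 for all genes in WT distal libraries, and 0.29 and 0.22 in WT proximal libraries. All genes here are the 10436 with a mean of at least 2 on the log2 CPM scale. In WT distal libraries 9 of the 10 members had an SD above that median of all genes.

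**Figure D1:**
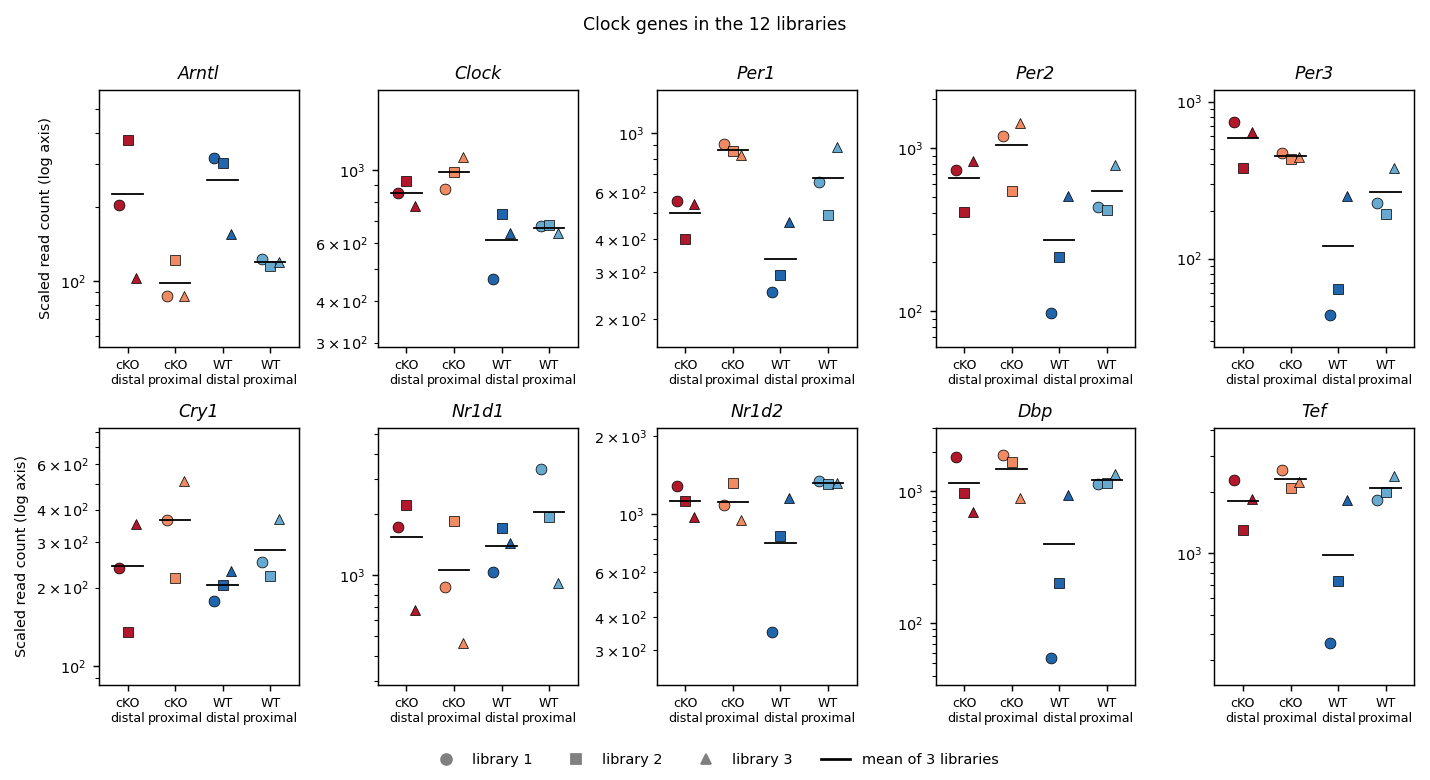
Scaled read counts (log axis) of the 10 clock genes in the 12 libraries, by group; symbols give the library number and the bar is the mean of 3 libraries. The WT distal libraries 1 and 2 lie lowest of all libraries for Dbp, Per3, Per2 and Tef, with WT distal library 3 well above them.

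In the distal segment, the question was whether clock genes differ between cKO and WT. Per3, Dbp and Per2 were higher in cKO, 3 of the 10 members, and none was lower. Across all genes tested, 13.3% were called higher and 25% called in either direction (limma, Benjamini-Hochberg adjusted p under 0.05 over 17175 genes). The median log2 fold change was 0.65 over the 10 members and 0.06 over all genes. In bulk tissue such as this, fewer cells of a type and less RNA per cell cannot be told apart.

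Per3, a period gene largely dispensable for rhythm in the mouse, stood at 741, 378 and 644 in cKO distal libraries 1, 2 and 3, against 43.8, 63.7 and 251 in WT distal libraries. Every cKO value lay above every WT value. The log2 fold change was 2.65 (SE 0.49, limma adjusted p = 0.0015), 6.28-fold. It stayed past the threshold without any single library, at 2.15 to 3.39, and in 10 of 11 other settings. The exception was the fit with the mitochondrial read share as a covariate (2.12, adjusted p = 0.0592).

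Dbp stood at 1829, 966 and 696 in cKO distal libraries, against 54.8, 201 and 934 in WT distal libraries. Library 3 of WT lay above library 3 of cKO, so the groups overlapped. The log2 fold change was 2.29 (SE 0.70, limma adjusted p = 0.0287). The call was lost without WT distal library 1 (1.30, adjusted p = 0.122), WT distal library 2 (2.23, 0.0867), cKO distal library 1 (1.90, 0.127) or cKO distal library 2 (2.36, 0.0604), and without WT distal library 3 the value was 3.34 (0.000249). On the recovered read counts, edgeR ended the call (adjusted p = 0.119), as did DESeq2 (1.51, 0.141), and limma with a mitochondrial covariate gave 0.82 (0.559).

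Per2, a core repressor, stood at 733, 409 and 835 in cKO distal libraries, against 97.4, 216 and 510.2 in WT distal libraries. WT library 3 lay above cKO library 2, and the other libraries did not overlap. The log2 fold change was 1.51 (SE 0.51, limma adjusted p = 0.0424). It was 0.92 (adjusted p = 0.199) without WT distal library 1, 1.49 (0.108) without WT distal library 2, 1.40 (0.134) without cKO distal library 1 and 1.31 (0.11) without cKO distal library 3, and the call was lost in each case. Scaling the counts by TMM factors also ended the call (adjusted p = 0.0532), as did edgeR (0.0919) and DESeq2 (0.052).

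The other 7 members did not pass in the distal segment. Tef, the partner of Dbp in its family, stood at 2286, 1303 and 1837 in cKO distal libraries, against 363, 733 and 1826 in WT distal libraries, with a log2 fold change of 1.16 (limma adjusted p = 0.0523). Without WT distal library 3 it was called (1.77, limma adjusted p = 0.000537), as were Per1 (0.0156) and Nr1d2 (0.0126). In each of these genes the library left out held the highest WT distal value, so leaving it out raised the difference. The share of all genes called in that fit is not given here. Leaving out single libraries moved the number of all genes called between 2466 and 4954. Clock stood at 854, 928 and 780.5 in cKO distal libraries, against 466, 735 and 643 in WT distal libraries. The Clock groups did not overlap, and Clock and Per3 were the 2 members separated in this direction, against 18.9% of all genes. The log2 fold change of Clock was 0.50 (adjusted p = 0.0526), and it was called without WT distal library 2 (0.0319) and without cKO distal library 3 (0.0451), by edgeR (0.049) and by DESeq2 (0.0284). Per1 was at 0.60 (adjusted p = 0.0906) and Nr1d2 at 0.69 (0.127). Arntl, Cry1 and Nr1d1 had log2 fold changes of -0.31, 0.14 and 0.01, with SEs of 0.39, 0.35 and 0.54, and that of Nr1d1 was -0.08 with TMM factors.

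In the proximal segment, none of the 10 members passed between cKO and WT, against 8.26% of all genes (limma). Of the genes called, 51.0% were higher in cKO, or 40.6% with TMM factors. At an unadjusted p under 0.05 there was 1 member, and DESeq2 called 1, Clock in both cases, while edgeR called none. Over all genes DESeq2 called 2304 and edgeR 1290, and the share at that unadjusted p is not given here. Clock stood at 879, 988 and 1092 in cKO proximal libraries, against 675, 680.2 and 646 in WT proximal libraries, with no overlap. Its log2 fold change was 0.56 (SE 0.18, limma adjusted p = 0.0649; DESeq2 adjusted p = 0.0166). A limma fit of the proximal libraries alone gave an adjusted p = 0.0321 for Clock.

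Per3 stood at 468, 432 and 446 in cKO proximal libraries, against 226, 192 and 377 in WT proximal libraries. Its groups did not overlap either, which made 2 members separated and higher, against 20.6% of all genes. Its log2 fold change was 0.82 (SE 0.49, limma adjusted p = 0.318). Per2 was at 0.90 (0.292), Per1 at 0.39 (0.352), Dbp at 0.22 (0.88) and Tef at 0.15 (0.852). Nr1d1 ranged from 459 to 1861 in cKO proximal libraries and from 910.3 to 3341 in WT proximal libraries, and its log2 fold change was -0.99 (SE 0.54, adjusted p = 0.272).

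Whether the effect of genotype differed between the segments was tested as the distal minus the proximal log2 fold change. None of the 10 members passed, against 0.576% of all genes (limma). There was 1 member at an unadjusted p under 0.05, a level for which the share of all genes is not given here. No member was called by edgeR or DESeq2, which called 59 and 594 of all genes. The estimate was 1.83 for Per3 (SE 0.69, limma adjusted p = 0.251) and 2.07 for Dbp (SE 0.99, adjusted p = 0.393). With the library number as a block, Per3 was called (adjusted p = 0.0383, where 2.68% of all genes were called). Without WT distal library 3, both Per3 (2.58, adjusted p = 0.0166) and Dbp (3.12, adjusted p = 0.0351) were called.

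**Figure D2:**
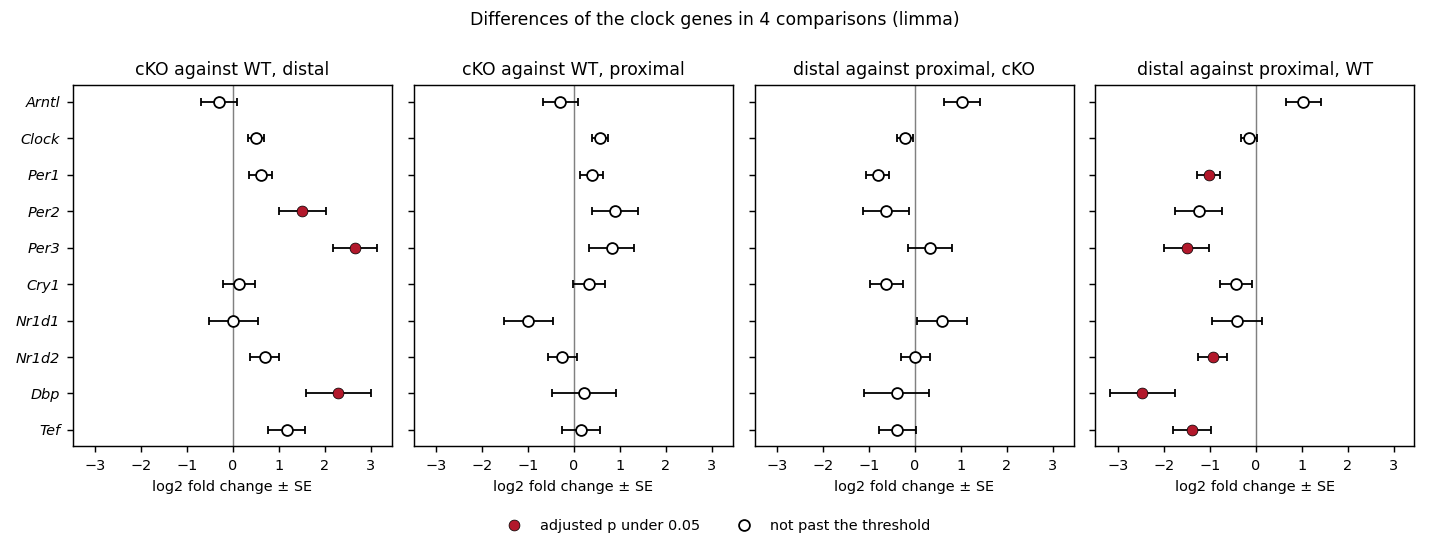
Log2 fold change with its SE for each of the 10 clock genes in 4 comparisons from 1 limma fit of 12 libraries; filled points passed an adjusted p of 0.05. Calls stand in 2 panels, 3 genes higher in cKO than in WT distal libraries and 5 genes lower in WT distal than in WT proximal libraries, and both panels use the WT distal libraries.

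Along the intestine of WT mice, 5 of the 10 members were lower in the distal segment and none was higher, against 12.2% of all genes called lower and 24.1% in either direction (limma). These were Dbp, Per3, Tef, Per1 and Nr1d2. The median log2 fold change was -0.98 over the members and 0.04 over all genes. This comparison shares its WT distal libraries with the distal comparison of genotypes above. The labels describe distal and proximal libraries of a genotype with shared numbers, and with the number as a block 7 members were called, where 28.7% of all genes were.

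Per1, a period gene that light and feeding signals induce rapidly, stood at 252, 292 and 463 in WT distal libraries, against 655, 492 and 889 in WT proximal libraries. No distal value reached a proximal one. On the log2 scale the difference was -1.02 (SE 0.25, limma adjusted p = 0.0086), and it passed without any single library and in 11 of 11 other settings. It was the one member of the 5 for which this held.

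Dbp stood at 54.8, 201 and 934 in WT distal libraries, against 1132, 1162 and 1355 in WT proximal libraries. The groups did not overlap, although distal library 3 was close to the proximal values. The log2 fold change was -2.47 (SE 0.70, limma adjusted p = 0.0204). The call was lost without WT distal library 1 (-1.48, adjusted p = 0.0724), WT distal library 2 (-2.41, 0.0685) or WT proximal library 3 (-2.39, 0.0528), and under edgeR (0.0858) and DESeq2 (0.103).

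Per3 stood at 43.8, 63.7 and 251 in WT distal libraries, against 226, 192 and 377 in WT proximal libraries. Tef stood at 363, 733 and 1826 in WT distal libraries, against 1825, 1998 and 2398 in WT proximal libraries. In both genes the highest distal value, from library 3, lay at or above the lowest proximal one. Per3 had a log2 fold change of -1.5014 (SE 0.49, limma adjusted p = 0.0374) and Tef one of -1.39 (SE 0.41, adjusted p = 0.0245). Per3 lost its call without WT distal library 1 (adjusted p = 0.156), WT distal library 2 (-1.26, 0.145), WT proximal library 1 (-1.58, 0.0673) or WT proximal library 3 (-1.22, 0.131), and under edgeR (0.0959) and DESeq2 (0.0644). Tef lost it without WT distal library 1 (-0.83, 0.0905), WT distal library 2 (-1.34, 0.0807), WT proximal library 2 (-1.41, 0.057) or WT proximal library 3 (-1.28, 0.0726), and under edgeR (0.0512), in the 2-group fit (0.0749) and with the mitochondrial covariate (0.0902).

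Nr1d2 stood at 352, 821 and 1152 in WT distal libraries, against 1344, 1305 and 1317 in WT proximal libraries, with no overlap. Its log2 fold change was -0.93 (SE 0.31, limma adjusted p = 0.0451). The call was lost on leaving out any WT proximal library (adjusted p = 0.101, 0.0948 and 0.0914 without libraries 1, 2 and 3), WT distal library 1 (-0.44, 0.126) or WT distal library 2 (-1.05, 0.0674), and held under edgeR (0.0409) and DESeq2 (0.0274). The 2-group limma fit ended it (adjusted p = 0.115), and it held in 8 of 11 other settings (highest adjusted p = 0.152). Dbp, Per1 and Nr1d2 were the 3 members whose WT distal libraries all lay below the proximal ones, against 18.8% of all genes.

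Arntl, the positive limb of the loop, ran the other way. It stood at 317, 302 and 156 in WT distal libraries, against 123, 116 and 119 in WT proximal libraries. It was the 1 member with every distal library above every proximal one, against 19.2% of all genes. Its log2 fold change was 1.04 (SE 0.39, limma adjusted p = 0.0666), and with the number as a block it was called (adjusted p = 0.018). Per2, at -1.24 (SE 0.51, adjusted p = 0.0926), was also called with the block (0.0030), and both were called without WT distal library 3 (Arntl 1.37, 0.023; Per2 -1.85, 0.0085).

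In cKO mice the same comparison called none of the 10 members, against 10.5% of all genes (limma). At an unadjusted p under 0.05 there were 2 members, and the share of all genes at that level is not given here. Over all genes edgeR called 1943, among them 1 member, and DESeq2 called 2762, among them 2 members. Per1 stood at 557, 398 and 541 in cKO distal libraries, against 906, 858 and 828 in cKO proximal libraries. It was the 1 member whose libraries did not overlap and were lower, against 16.2% of all genes, with a log2 fold change of -0.81 (SE 0.25, adjusted p = 0.0532). Arntl stood at 203, 373 and 103 in cKO distal libraries, against 86.8, 122 and 86.7 in cKO proximal libraries, with a log2 fold change of 1.02 (SE 0.39, adjusted p = 0.115). Without cKO distal library 3, Arntl was called (1.49, adjusted p = 0.0148). With the number as a block, 3 members passed, where 15.1% of all genes did: Per1 (adjusted p = 0.01), Arntl (0.0328) and Cry1 (-0.62, 0.0399).

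Between the segments of one numbered pair, several members had one direction in each of the 6 pairs of both genotypes. Arntl was higher in the distal library in 6 of 6 pairs, and Dbp, Tef, Per1, Per2 and Cry1 were lower in 6 of 6. The sizes were unequal. Dbp differed by a log2 ratio of -4.37, -2.53 and -0.54 in WT pairs 1, 2 and 3, but by -0.04, -0.78 and -0.36 in cKO pairs. Per3 and Nr1d2 were lower in 4 of 6 pairs, Clock in 5 and Nr1d1 in 2. The share of all genes with 1 direction in each pair was not counted, so these counts have no background beside them.

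The ratio of 2 members within a library does not depend on how libraries were scaled. The log2 ratio of Dbp over Arntl, one gene of each limb, was 3.17, 1.37 and 2.76 in cKO distal and 4.44, 3.77 and 3.37 in cKO proximal libraries. It was -2.53, -0.58 and 2.58 in WT distal and 3.20, 3.33 and 3.51 in WT proximal libraries. These are ratios of scaled counts, not corrected for gene length. They were below 0 in WT distal libraries 1 and 2 alone of the 12. The ratio was lower in the distal library in 6 of 6 pairs, which follows from the directions of Dbp and Arntl given above.

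A ratio chosen after its values were seen, Nr1d1 over Per2, gave the numbered libraries of a genotype 1 order in both segments. These transcripts reach their daily peaks at different hours in mouse tissues. The log2 ratio was 1.24, 2.44 and -0.31 in cKO distal and -0.44, 1.76 and -1.63 in cKO proximal libraries. It was 3.41, 2.99 and 1.49 in WT distal and 2.94, 2.20 and 0.21 in WT proximal libraries. In both segments of cKO mice library 2 had the highest ratio and library 3 the lowest, and in both segments of WT mice library 1 had the highest and library 3 the lowest. The ratio was higher in the distal library in 6 of 6 pairs. No test was made of this order, which is a description only because the ratio was chosen from these same values. Dbp over Arntl, given above, kept 1 order in both segments of WT but not of cKO mice. Further ratios of members are not given here.

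**Figure D3:**
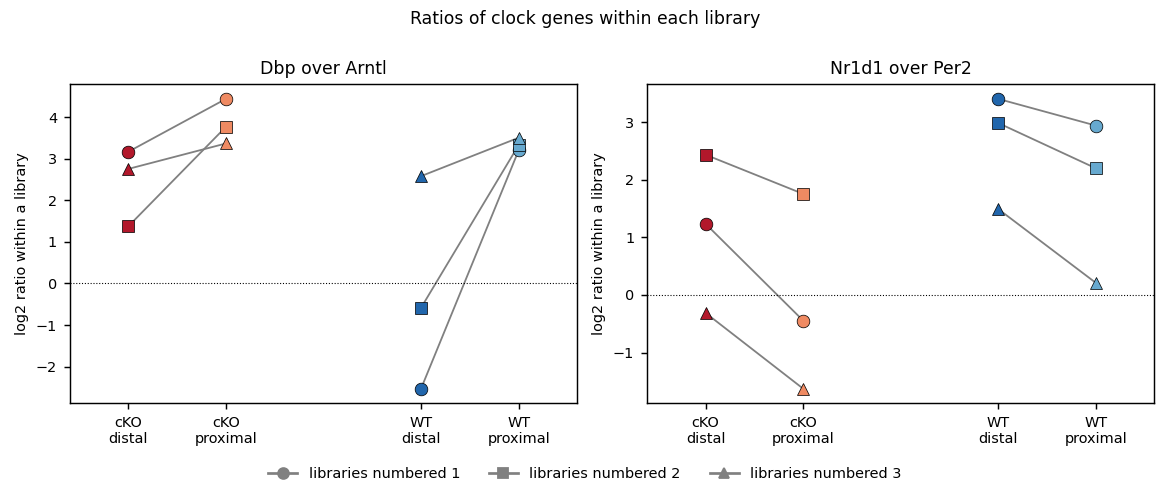
Log2 ratio within each library of Dbp over Arntl (left) and Nr1d1 over Per2 (right), by group; lines join distal and proximal libraries of one number. Dbp over Arntl falls below 0 in WT distal libraries 1 and 2, and the lines of Nr1d1 over Per2 do not cross within a genotype.

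Reads of members that overlap a gene on the opposite strand cannot be told apart where counting did not use strand, which the sources used here do not state. Exons of Dbp share 539 bases (18.01% of its exon length) with Sphk2, and those of Nr1d1 share 263 bases (8.55%) with Thra. Sphk2 had a log2 fold change of 0.50 between cKO and WT distal libraries (limma adjusted p = 0.147) and -0.74 between WT distal and WT proximal libraries (adjusted p = 0.0383), where Dbp was at 2.29 and -2.47. Thra was not called in either comparison (0.38, adjusted p = 0.407; -0.40, adjusted p = 0.386).

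Sums of epithelial, fibroblast and myeloid markers and the mitochondrial share of reads moved with the low WT distal values, and those of several other lists did not. In WT distal libraries 1, 2 and 3, where Dbp was 54.8, 201 and 934, the summed level of 6 epithelial markers (Epcam, Vil1, Cdh1, Krt8, Krt19 and Krt20) was 112036, 125092 and 194344. That of 6 fibroblast markers, such as Col1a1 and Pdgfra, was 23734, 15813 and 2023. That of 6 myeloid markers, such as C1qa and Csf1r, was 23547, 12422 and 5933, and the mitochondrial share of reads was 37.7, 29.5 and 22.3%. Over the same WT distal libraries B and plasma cell markers summed to 7861, 18254 and 13003, with no such order. T cell, smooth muscle, endothelial and proliferation sums also did not run in 1 direction, whereas erythrocyte, neural and glial sums did. In cKO distal libraries the epithelial sum was 173694 to 279292, the fibroblast sum 5034 to 5428 and the myeloid sum 3600 to 5459. The mitochondrial share was 11.5, 9.95 and 27.7% in cKO distal libraries 1, 2 and 3, where Per3 was 741, 378 and 644. In WT distal libraries, with the shares given above, Per3 was 43.8, 63.7 and 251. The part of these differences in the clock gene values was not tested beyond the fit with the mitochondrial share as a covariate.

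Other marker lists differed between the groups as well. B and plasma cell markers summed to 221 to 517 in cKO distal, 366 to 701 in cKO proximal, 7861 to 18254 in WT distal and 1367 to 4096 in WT proximal libraries, and all 6 were lower in cKO than in WT distal libraries (limma). The sum of 4 proliferation markers was 1551 to 2594 in cKO distal, 1803 to 2121 in cKO proximal, 3993 to 4878 in WT distal and 1509 to 2044 in WT proximal libraries. T cell markers summed to 494 to 887 in cKO distal, 1641 to 3324 in cKO proximal, 735 to 1666 in WT distal and 2523 to 5857 in WT proximal libraries. The highest sum in any library was 5403 for erythrocyte markers, 498 for smooth muscle markers, 478 for endothelial markers and 87.3 for the 4 measured of 6 neural and glial markers, and up to 2 of 6 smooth muscle markers were at 0 reads. No epithelial, fibroblast or myeloid marker was at 0 in any library.

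**Figure D4:**
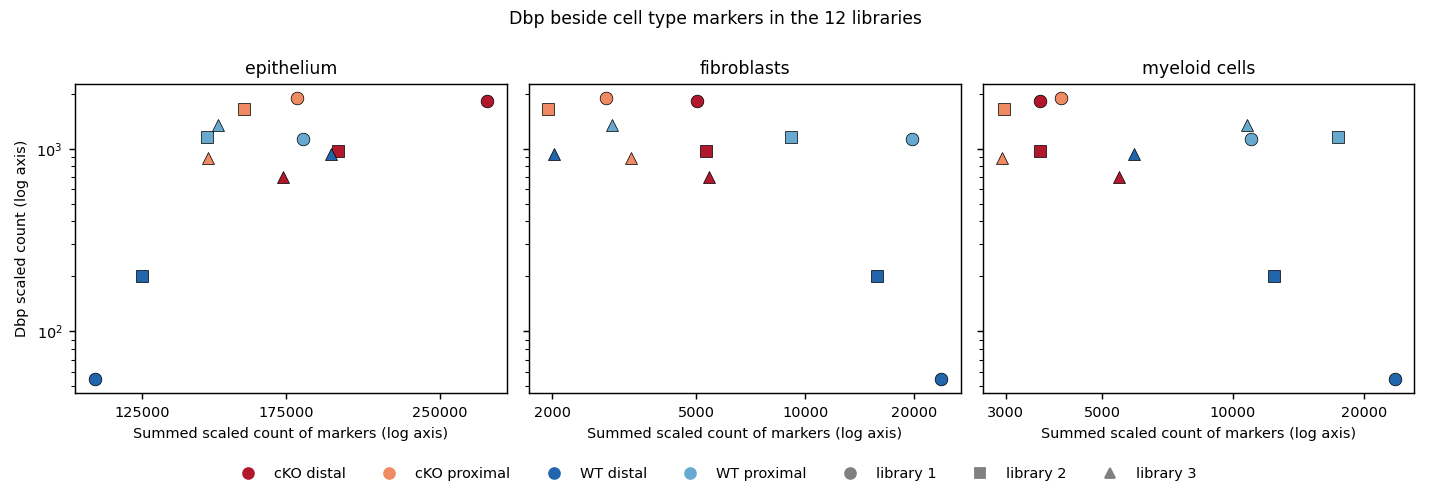
Scaled count of Dbp against the summed scaled count of epithelial, fibroblast and myeloid markers in the 12 libraries, on log axes; colour gives the group and symbol the library number. WT distal libraries 1 and 2 have the lowest epithelial sums and the lowest Dbp. WT proximal library 1 has a fibroblast sum of 19726 with Dbp at 1132, and WT proximal library 2 a myeloid sum of 17440 with Dbp at 1162. No relation between Dbp and the sums was tested.

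Among 24 measured genes that adjust the core clock, 3 rose and 3 fell in cKO against WT distal libraries (limma), the same share as the 25% of all genes called, and their median log2 fold change was 0.09, against 0.06 for all genes. Bhlhe41 (DEC2, a repressor of the CLOCK dimer) was at 20.3 ± 1.25 in cKO and 83.4 ± 9.34 in WT distal libraries (SD, n = 3 each; log2 fold change -1.98, adjusted p = 0.0027). Prkaa2, a catalytic subunit of the AMP-activated kinase that marks CRY1 for degradation, was at 917 ± 57.9 in cKO and 467 ± 166 in WT (1.04, 0.0074). Both calls held without any single library. Ciart (CHRONO, another repressor, itself an E-box target) had values of 242, 95.4 and 144 in cKO distal libraries, against 9.74, 20.6 and 82.2 in WT distal libraries, with no overlap (2.49, 0.0118). Timeless, a gene of replication fork stability in mammals, was lower (-1.36, 0.0093). Ciart lost its call without cKO distal library 1, WT distal library 1 or WT distal library 2 (highest adjusted p = 0.0648), and Timeless without cKO distal library 1 (0.0531). With the mitochondrial share as covariate Prkaa2 (0.170), Ciart (0.206) and Timeless (0.124) were not called, and Bhlhe41 was. In the proximal segment, where 8.26% of all genes were called, 2 of the 24 rose, Prkaa2 (1.45, adjusted p = 0.0036) and Bhlhe40, the DEC1 gene (0.97, 0.0162), the second of which was lost without cKO proximal library 1, cKO proximal library 3 or WT proximal library 2 (highest adjusted p = 0.0718).

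Along the axis, Hlf, of the same family as Dbp and Tef, was called lower in the distal segment of both genotypes. It was at 18.01, 34.8 and 17.0 in cKO distal libraries, against 157, 112 and 154 in cKO proximal libraries (log2 fold change -2.60, limma adjusted p = 0.0055). In WT it was at 12.2, 24.7 and 64.3 in distal libraries, against 163, 274 and 516 in proximal libraries (-3.35, 0.00052). No distal value reached a proximal one in either genotype, and both calls held without any single library, although that in cKO was lost without both libraries numbered 1 (adjusted p = 0.0756). In WT distal libraries 2 of the 24 regulators were higher and 2 lower, against 24.1% of all genes called, the others being Timeless (1.49, 0.0056), Bhlhe41 (1.33, 0.0253) and Hdac3, the histone deacetylase recruited by REV-ERBs (-0.56, 0.0211). In cKO, where 10.5% of all genes were called, 2 were lower, Hlf and Bhlhe40 (-0.85, 0.022). Of these, Bhlhe41 was lost without WT distal library 1 or 2 or WT proximal library 3 (highest adjusted p = 0.111), Hdac3 without WT distal library 1 or WT proximal library 2 or 3 (0.0751), and Bhlhe40 without cKO distal library 2 or cKO proximal library 1 or 3 (0.104).

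Of 14 genes known as outputs of the clock, 5 rose and none fell in cKO against WT distal libraries (limma), where 13.3% of all genes were called higher and 25% in either direction, with a median log2 fold change of 0.51, against 0.06 for all genes. Por, the electron donor of cytochrome P450 enzymes, was at 8728 ± 3929.9 in cKO and 2184 ± 1622 in WT distal libraries (SD, n = 3 each; 2.11, adjusted p = 0.0046). The efflux pump gene Abcb1a (2.14, 0.0067) and the nuclear receptor gene Ppara (1.51, 0.0087) also held without any single library. With the mitochondrial share as covariate, though, none of the 5 was called (adjusted p = 0.0935 for Por, 0.172 for Abcb1a, 0.209 for Ppara, 0.380 for Slc15a1 and 0.325 for Slc5a1). Over all genes that fit called 1392, against 4297 without the covariate. The peptide transporter gene Slc15a1 (1.44, 0.0196) and the sugar transporter gene Slc5a1 (1.63, 0.0261) were lost without cKO distal library 1, WT distal library 1 or WT distal library 2 (highest adjusted p = 0.0977 and 0.135). In WT distal against WT proximal libraries 5 of the 14 fell and none rose, where 12.2% of all genes were called lower, with a median of -0.60, against 0.04 for all genes. Por (-2.27, 0.0029) and the deubiquitinase gene Usp2 (-1.63, 0.0056) held without any single library, while Nampt, the rate-limiting enzyme of NAD salvage (-0.82, 0.0145), Ppara (-1.21, 0.028) and Slc5a1 (-1.52, 0.0364) did not (highest adjusted p = 0.0607, 0.119 and 0.160). In cKO, Nampt fell in the distal segment (-1.31, 0.0013), which held. In the proximal segment 1 of the 14, the Krüppel-like factor gene Klf9, was lower in cKO (-0.75, 0.0343), a call lost without any one of 4 libraries (highest adjusted p = 0.130). Several of these genes, such as the transporter genes Slc15a1 and Slc5a1, are also enterocyte genes. The epithelial marker sum was 173694 to 279292 in cKO distal, 112036 to 194344 in WT distal and 145354 to 181924 in WT proximal libraries. Its part in these calls was not tested.

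The genes whose pattern over the 12 libraries was nearest to that of Dbp, by root mean square difference of centred log2 values among 10436 genes, were Pck1 (0.47), Slc2a5 (0.56), Slc5a4a (0.58), Vwce (0.58) and Ttll2 (0.63), where the root mean square of Dbp itself was 1.42. Pck1, of gluconeogenesis, ranged from 1584 to 3153 in cKO distal, 3005 to 4854 in cKO proximal, 228 to 1242 in WT distal and 3556 to 4547 in WT proximal libraries. Slc2a5, the fructose transporter of enterocytes, ranged from 2565 to 5047 in cKO distal, 5118 to 6311 in cKO proximal, 477 to 1669 in WT distal and 3511 to 5638 in WT proximal libraries. Nearest to the mirror image of Dbp were Gpr137b (0.69), Csf3r (0.74), Inf2 (0.76), Emp3 (0.80) and Flna (0.80). Nearest to Arntl, whose own root mean square was 0.71, were Tgm2 (0.34), Rnf152 (0.35), Smco4 (0.35), R3hcc1 (0.35) and Prc1 (0.35). No other clock gene stood among these 15. These are descriptions over 12 libraries, with no test.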

How the data were processed

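Per the labels' protocols, RNA was taken up in Trizol and amplified into libraries by NuGEN's Ovation RNA-Seq System V2. The submitters' processing notes name STAR, the mm10 build and DESeq2 1.28.1, and give no role for them. The deposited signal in each of the 12 columns is a read count plus 1, divided by a size factor: all 206100 values were whole multiples of a library's step within 0.001 steps, and 10499 were at 1 step. The recovered read counts gave the depths, with 12 columns for 12 libraries and none left over. Column names with CT were taken as WT and those with KO as Bmpr1a cKO.

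The main test was limma 3.58.1 (R 4.3.3) with a trended prior on log2(value + 1), 4 group means and 12 libraries in 1 fit, with Benjamini-Hochberg adjustment over 17175 genes and a threshold of 0.05. Fold changes are on that scale, which understates the change of low genes. A filter at a value of 1 in 3 libraries removed 0 genes, so each of the 10 members was tested. The tests were checked on simulated data with known changes. Alternatives were pseudocounts of 0.5 and 5, a filter at 10 (2705 genes removed), TMM factors, voom, edgeR 4.0.16 and DESeq2 1.42.0 on the recovered counts, fits of the 2 groups alone, each library left out, the library number as a block, the mitochondrial share as a covariate, and both cKO libraries numbered 1 left out.

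The labels give distal and proximal libraries of a genotype the same numbers but do not say that a number is 1 mouse. Their deviations from group means correlated for each number at 0.276 to 0.336 in WT and 0.329 to 0.497 in cKO (10123 genes), so the numbers were taken to pair the segments. That pairing entered only the fits with the number as a block. The main limma fit left it out, so its segment calls and p-values ignore the pairs. Between genotypes the correlation was -0.210 to 0.157 distally and -0.186 to -0.130 proximally, and numbers were not taken as pairs.

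The members, gene lists and tests were chosen with earlier results of these data known. Genes named are the 10 members, up to 4 called genes per list and comparison with the smallest p, and the 5 nearest to each pattern. Lengths came from GENCODE M21, which held 17158 of the gene IDs.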

Additional observations from a re-analysis of the deposited data

How the results depend on the processing

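Of 900 values of a member under an alternative, 784 kept their direction and side of the threshold, 53 lost a call, 30 gained one and 33 turned direction, and the cause was not tested. Between cKO and WT proximal libraries 1418 genes were called, against 2304 with DESeq2, 1659 in the 2-group fit, 540 with the replicate block, 405 with the mitochondrial covariate, 766 without both cKO libraries numbered 1 and 580 to 1360 without single libraries. DESeq2 and the 2-group fit each called 1 member, and none was called without single libraries (0 to 0). Between cKO and WT distal libraries 4297 genes were called, against 3010 in the 2-group fit, 2427 with the block, 1392 with the covariate, 2160 without both cKO libraries numbered 1 and 2466 to 4954 without single libraries. Members were 1 in the 2-group fit, 0 with the covariate, 1 without both cKO libraries and 1 to 6 without single libraries. Between WT segments 4137 genes were called, against 4239 with edgeR, 3384 in the 2-group fit, 3344 with the covariate, 3677 without both cKO libraries numbered 1 and 2741 to 3924 without single libraries. Members fell from 5 to 2 with edgeR, 2 in the 2-group fit, 1 with the covariate and 3 without both cKO libraries, and were 1 to 7 without single libraries. Between cKO segments 1806 genes were called, against 2008 with TMM factors, 1926 with voom, 1943 with edgeR, 2762 with DESeq2, 1751 in the 2-group fit, 2601 with the block, 862 without both cKO libraries and 1031 to 1545 without single libraries. Members were 1 with TMM factors, voom, edgeR or the 2-group fit, 2 with DESeq2, 3 with the block and 0 to 1 without single libraries. The difference of genotype effects called 99 genes, against 168 with a pseudocount of 5, 20 with voom, 59 with edgeR, 594 with DESeq2, 460 with the block, 2 without both cKO libraries and 7 to 266 without single libraries; members were 1 with the block and 0 to 2 without single libraries.

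The values that turned direction were all uncalled in the fit as reported. With the mitochondrial covariate these were Dbp (-0.96) and Tef (-0.306) between proximal genotypes, Nr1d1 (-0.879) between distal genotypes, Nr1d1 (0.0603) between WT segments and Dbp (0.0842) between cKO segments. With TMM factors and voom they were distal Nr1d1 (-0.0828 and -0.0906) and the Arntl difference (0.0103 and 0.11), which was also 0.0913 with edgeR and 0.0609 with DESeq2. Without both cKO libraries numbered 1 they were distal Nr1d1 (-0.159) and Nr1d2 between cKO segments (-0.104). Without single libraries the ranges that crossed 0 were -0.761 to 0.160 for Arntl, -0.187 to 0.501 for Cry1 and -0.338 to 0.521 for Nr1d1 between distal genotypes, -0.283 to 0.0439 for Clock and -0.898 to 0.0391 for Nr1d1 between WT segments, and -0.0964 to 0.138 for Nr1d2 between cKO segments. For the difference of genotype effects they were -0.468 to 0.454 for Arntl, -0.250 to 0.0778 for Clock, -0.000112 to 0.472 for Per1 and -0.523 to 0.170 for Cry1.

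With the number as a block, which is no pairing between genotypes, the adjusted p of Dbp between distal genotypes was 0.0558; the block values that changed calls between segments stand with those results. Depth limits the lowest values, such as the 35 reads of Per3 in 1 library, while the spread between libraries of a group sets the error of the rest.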

Other observations

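Genes that respond to glucocorticoids, hormones with a daily rhythm in mice, were also listed, and 9 of 10 were measured. In cKO against WT distal libraries 2 rose and none fell (limma), where 25% of all genes were called, with a median log2 fold change of 0.65, against 0.06 for all genes: Errfi1, an inhibitor of EGF receptor signalling (909 ± 121 in cKO and 425 ± 26.5 in WT, SD, n = 3 each; 1.09, adjusted p = 0.00099), and the metallothionein gene Mt1 (1.58, 0.0015). In the proximal segment 3 rose and 1 fell, where 8.26% of all genes were called, with a median of 1.03, against 0.08: Errfi1 (1.03, 0.0058), the mTORC1 inhibitor gene Ddit4 (1.09, 0.0102) and Mt1 (1.11, 0.0331) rose, and Klf9, also among the outputs, fell (-0.75, 0.0343). Errfi1 was lower in distal than in proximal libraries in cKO (-1.39, 0.00025) and in WT (-1.45, 0.00011), calls that held without any single library. In WT, Mt1 (-1.03, 0.0185) and the kinase gene Sgk1 (-1.16, 0.0438) were also lower and Ddit4 was higher (0.83, 0.0149). Proximal Mt1 lost its call without any one of the 6 libraries (highest adjusted p = 0.0907), and the WT segment calls of Mt1, Sgk1 and Ddit4 were lost without some (highest 0.0730, 0.168 and 0.0706).

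Of 15 immediate early genes, which follow acute stimuli such as handling, 1 rose and 3 fell in cKO against WT distal libraries (limma), a share near the 25% of all genes called, with a median of 0.02, against 0.06. Egr3 was at 21.1 ± 11.3 in cKO and 257 ± 179 in WT (SD, n = 3 each; -3.38, adjusted p = 0.00055) and Nr4a1 at 48.9 ± 21.4 in cKO and 213 ± 57.3 in WT (-2.15, 0.00043), and both held without any single library. Egr2 (-1.48, 0.0135) and Jund (0.62, 0.0219) did not (highest adjusted p = 0.0575 and 0.116). Egr3 alone was called proximally (-2.16, 0.0268; highest 0.103 without a library). In WT distal against WT proximal libraries Fos (-1.86, 0.00082) was lower and Nr4a1 (1.55, 0.0041) higher, which held, and Fosb (-1.48, 0.0472) and Egr3 (1.79, 0.0265) were called but lost without some libraries (highest 0.202 and 0.139). In cKO, Jun (-0.93, 0.0231) was lower and Jund (0.63, 0.0382) higher in the distal segment, both lost without some libraries (0.103 and 0.140).

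Of 10 genes that follow body temperature, none passed between distal genotypes, where 25% of all genes were called (limma). At an unadjusted p under 0.05 there was 1, and the share of all genes at that level is not given here. In cKO against WT proximal libraries 4 heat shock genes rose, where 8.26% of all genes were called, with a median of 0.87, against 0.08. Hspa1a was at 73.4 ± 47.7 in cKO and 8.68 ± 3.81 in WT (SD, n = 3 each; 2.84, adjusted p = 0.0342), Hspa1b had 2.63 (0.0377), Hspd1 0.99 (0.0258) and Hspe1 0.81 (0.0366), and none of the 4 held without each single library (highest adjusted p = 0.124, 0.143, 0.0836 and 0.124). Rbm3, which cold induces, was higher in WT distal than in WT proximal libraries (0.78, 0.0158; highest 0.0687), and Dnajb1 was lower in cKO distal than in cKO proximal libraries (-0.65, 0.0422; highest 0.170). In the difference of genotype effects none of these lists held a called gene.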
